A study of Mus musculus with 4 samples.

Results

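The genes of DNA replication and S phase form a list of 58 named genes. A gene was measured when a probe of the array carried its symbol and no other, and the brightest such probe stood for the gene. This gave values for 56 of the 58 genes, out of 22180 genes measured in the same way. The probe for Rfc4 also names Eif4a2 and the probe for Ccne2 also names Ints8, so neither gene has a value here.

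The cells were CD4 regulatory T cells, sorted 7 days after mice had been immunized with NP-OVA, a hapten coupled to a protein antigen, in the adjuvant CFA. Follicular regulatory cells (TFR) were sorted as PD1+CXCR5+YFP+(FoxP3+)CD4+ and regulatory cells without CXCR5 (non-TFR) as CXCR5-YFP+(FoxP3+)CD4+. Cells with CXCR5 but without PD1 fall in neither gate. Each was sorted from FoxP3YFP-Cre mice (WT, called control) and from Prdm1fl/flFoxP3YFP-Cre mice (KO, called knockout), so that all groups carried the Foxp3-driven YFP and Cre, and the knockout added floxed alleles of Prdm1, the gene of the repressor Blimp-1, which Cre can delete in Foxp3-expressing cells. The 4 groups had 1 Affymetrix Mouse Gene 2.0 ST array each, and the sources used here do not say how many mice an array stands for, nor their age or sex. There is no replicate spread, no difference below carries a test or p-value, and precision is limited by having 4 arrays. All values are log2 levels after quantile normalization, a difference of 1 is 2-fold, and levels of different genes are not comparable because each probe has its own scale.

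Prdm1 had levels of 8.21 and 7.32 in control and knockout TFR cells and of 7.80 and 7.59 in control and knockout non-TFR cells. The exons its probe covers are unstated, so this value does not check the deletion. Foxp3 lay between 11.87 and 12.45 and Cd3e between 12.93 and 13.04 on the 4 arrays. The gate genes Cxcr5 (9.52, 10.39, 8.06 and 8.90 in control TFR, knockout TFR, control non-TFR and knockout non-TFR cells) and Pdcd1 (9.86, 10.68, 7.44 and 8.96) followed the sort within each genotype. Of 28 marker genes of B, germinal centre B, plasma, myeloid, CD8 T, NK and erythroid cells, 22 were measured and 6 exceeded the median gene level of 5.91 (the expression limit) on any array. The B cell list, with 7 of 8 genes measured, had summed log2 levels of 40.9, 42.4, 38.4 and 39.8 in the same order of groups. Of its genes, Ms4a1 stayed between 3.98 and 4.12, and Cd79a, Ebf1 and Blnk were also below the expression limit on every array. Cd22 had levels of 8.27, 9.27, 5.99 and 7.04, Cd79b of 8.42, 8.19, 8.08 and 8.35, and Pax5 of 5.69, 6.10, 5.04 and 5.18. The other markers above the limit were Cd8b1 (8.73, 8.73, 9.42 and 9.29), Sdc1 on the TFR arrays and Klrb1c in knockout TFR cells. The 6 myeloid genes and the 2 measured germinal centre B cell genes were below the expression limit on every array. The part of B cell transcripts in the differences described here was not tested.

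DNA replication is prepared in the first gap phase, when the origin recognition complex, Cdc6 and Cdt1 load the MCM helicase onto origins. In S phase, cyclin-dependent kinase and the Cdc7-Dbf4 kinase turn the loaded helicase into the active form that also holds Cdc45 and the GINS complex, and polymerases, clamp and clamp loader copy the strands it separates. Many of these genes are known targets of E2F transcription factors and are transcribed in waves in dividing cells, and in T cells their transcripts rise when resting cells enter division. In RNA of whole sorted populations a larger share of cells in S phase and more RNA per cell cannot be told apart.

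The promoters were inspected for E2F-type motifs because the genes are grouped by a shared phase of the cycle. RefSeq windows from 250 bases before to 50 bases after the annotated start (mouse build GRCm38.p6) were at hand for 48 of the 58 genes, all but Gins1, Gins2, Gins4, Rfc2, Mcm4, Gmnn, Pole, Tipin, Prim2 and Ccne2. At least 1 of the motifs TTTCGCGC, TTTGGCGC, TTTCCCGC and TTTGCCGC, read on both strands and allowed to overlap, was present in 19 of these 48 genes (39.6%). The share was 2.61% of all 27025 genes with a window and 4.75% of the 8793 among them that were measured above the expression limit. The pentamer CCAAT was present in 62.5% of the list, 41.1% of all genes with a window and 42.4% of those above the limit. The E-box CACGTG was present in 14.6%, 8.09% and 11.8% in the same order. Median GC content was 61.3% in the windows of the list, 52.7% in all windows and 60.7% in those of genes above the limit. The 200 bases before the start are shown for 8 genes with an E2F-type match there, chosen to cover licensing, helicase, polymerase, chromatin, E2F and kinase genes. Capitals mark the match, which appears as its reverse complement where it lies on the other strand. In Mcm5 and in Mcm6 matches on opposite strands overlap.
Orc1 (chr4:108579254-108579453, plus strand): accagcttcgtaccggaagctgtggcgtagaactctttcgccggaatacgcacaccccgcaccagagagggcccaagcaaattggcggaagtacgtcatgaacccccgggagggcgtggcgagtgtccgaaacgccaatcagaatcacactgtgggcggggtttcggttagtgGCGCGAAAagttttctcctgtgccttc
Cdc6 (chr11:98907951-98908150, plus strand): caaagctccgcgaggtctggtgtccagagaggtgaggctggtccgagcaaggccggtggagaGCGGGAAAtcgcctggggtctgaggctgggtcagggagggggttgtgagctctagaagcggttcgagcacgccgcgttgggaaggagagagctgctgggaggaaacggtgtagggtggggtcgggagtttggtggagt
Mcm5 (chr8:75109309-75109508, plus strand): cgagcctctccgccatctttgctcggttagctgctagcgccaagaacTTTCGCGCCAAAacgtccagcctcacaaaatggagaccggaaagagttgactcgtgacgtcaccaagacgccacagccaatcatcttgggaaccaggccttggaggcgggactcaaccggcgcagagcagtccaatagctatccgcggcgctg
Mcm6 (chr1:128359706-128359905, minus strand): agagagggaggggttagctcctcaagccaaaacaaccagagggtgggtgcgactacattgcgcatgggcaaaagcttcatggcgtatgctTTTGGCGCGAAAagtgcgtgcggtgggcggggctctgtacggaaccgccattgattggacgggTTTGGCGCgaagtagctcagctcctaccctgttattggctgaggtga
Pola1 (chrX:93632156-93632355, minus strand): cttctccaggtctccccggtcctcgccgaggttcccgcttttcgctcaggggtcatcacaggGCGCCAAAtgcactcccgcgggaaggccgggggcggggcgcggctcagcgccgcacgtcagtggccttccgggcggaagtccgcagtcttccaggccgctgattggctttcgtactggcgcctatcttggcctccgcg
Uhrf1 (chr17:56304113-56304312, plus strand): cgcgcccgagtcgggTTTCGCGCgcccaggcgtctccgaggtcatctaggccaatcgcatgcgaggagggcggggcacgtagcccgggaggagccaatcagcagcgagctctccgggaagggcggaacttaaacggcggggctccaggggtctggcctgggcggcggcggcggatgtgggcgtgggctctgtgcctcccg
E2f7 (chr10:110745239-110745438, plus strand): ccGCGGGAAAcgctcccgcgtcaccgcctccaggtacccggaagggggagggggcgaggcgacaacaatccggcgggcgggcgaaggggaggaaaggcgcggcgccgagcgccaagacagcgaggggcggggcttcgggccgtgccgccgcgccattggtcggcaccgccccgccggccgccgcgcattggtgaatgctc
Cdk2 (chr10:128705052-128705251, minus strand): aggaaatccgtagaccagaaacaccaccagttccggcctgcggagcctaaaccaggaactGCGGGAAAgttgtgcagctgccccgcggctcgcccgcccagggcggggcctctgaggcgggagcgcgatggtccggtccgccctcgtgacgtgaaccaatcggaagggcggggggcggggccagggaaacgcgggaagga
For comparison, 2 genes with large differences between the cell populations and no E2F-type match in the window are shown with their CCAAT match in capitals.
E2f8 (chr7:48881597-48881796, minus strand): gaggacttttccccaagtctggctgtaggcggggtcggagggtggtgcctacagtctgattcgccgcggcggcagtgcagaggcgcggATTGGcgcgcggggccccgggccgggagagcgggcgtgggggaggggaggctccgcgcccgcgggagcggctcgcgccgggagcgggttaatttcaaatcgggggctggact
Rrm2 (chr12:24708054-24708253, plus strand): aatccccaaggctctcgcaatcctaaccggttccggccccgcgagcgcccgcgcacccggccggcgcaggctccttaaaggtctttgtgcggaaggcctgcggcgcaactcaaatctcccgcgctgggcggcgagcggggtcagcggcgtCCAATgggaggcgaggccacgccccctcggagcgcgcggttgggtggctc
These matches describe letters in a window and do not show binding. The Uhrf1 stretch belongs to 1 of 2 annotated starts of that gene. Among measured genes with a window, the median difference between control TFR and control non-TFR cells was 1.37 over the 19 genes with an E2F-type match and 0.94 over the 28 without. The ranges overlapped widely, from 0.16 to 2.11 with a match and from 0.04 to 3.32 without.

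Replication genes were higher in follicular regulatory cells in both genotypes. In control mice the TFR value exceeded the non-TFR value for all 56 genes, where it did for 51.7% of all genes measured, though Cdc7 and Dut changed sign under 1 alternative each. The median difference was 1.07 against 0.01 over all genes. At least 2-fold higher were 31 of the 56, where 2.69% of all genes and 4.13% of the 11090 genes above the expression limit were, and none was 2-fold lower, where 1.18% of all genes were. In knockout mice 54 of 56 were higher, where 50% of all genes were, and the median was 0.82, where that of all genes lay near 0. At least 2-fold higher were 24, where 2.23% of all genes and 3.03% of those above the expression limit were, and none was 2-fold lower, where 1.18% of all genes were. At a limit of 1.5-fold 43 were higher in control mice, where 8.69% of all genes were, and 42 in the knockout, where 7.85% were. All 56 genes had a mean level above the limit, and 6 of them (Orc1, Gins1, Pole2, Chaf1a, E2f7 and Clspn) fell below it on at least 1 array. The 24 genes were all among the 31. Both TFR arrays lay above both non-TFR arrays for 53 of the 56 genes, an arrangement seen in 32% of all genes. The exceptions were Gins4, Cdc7 and Pold2.

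**Figure D1:**
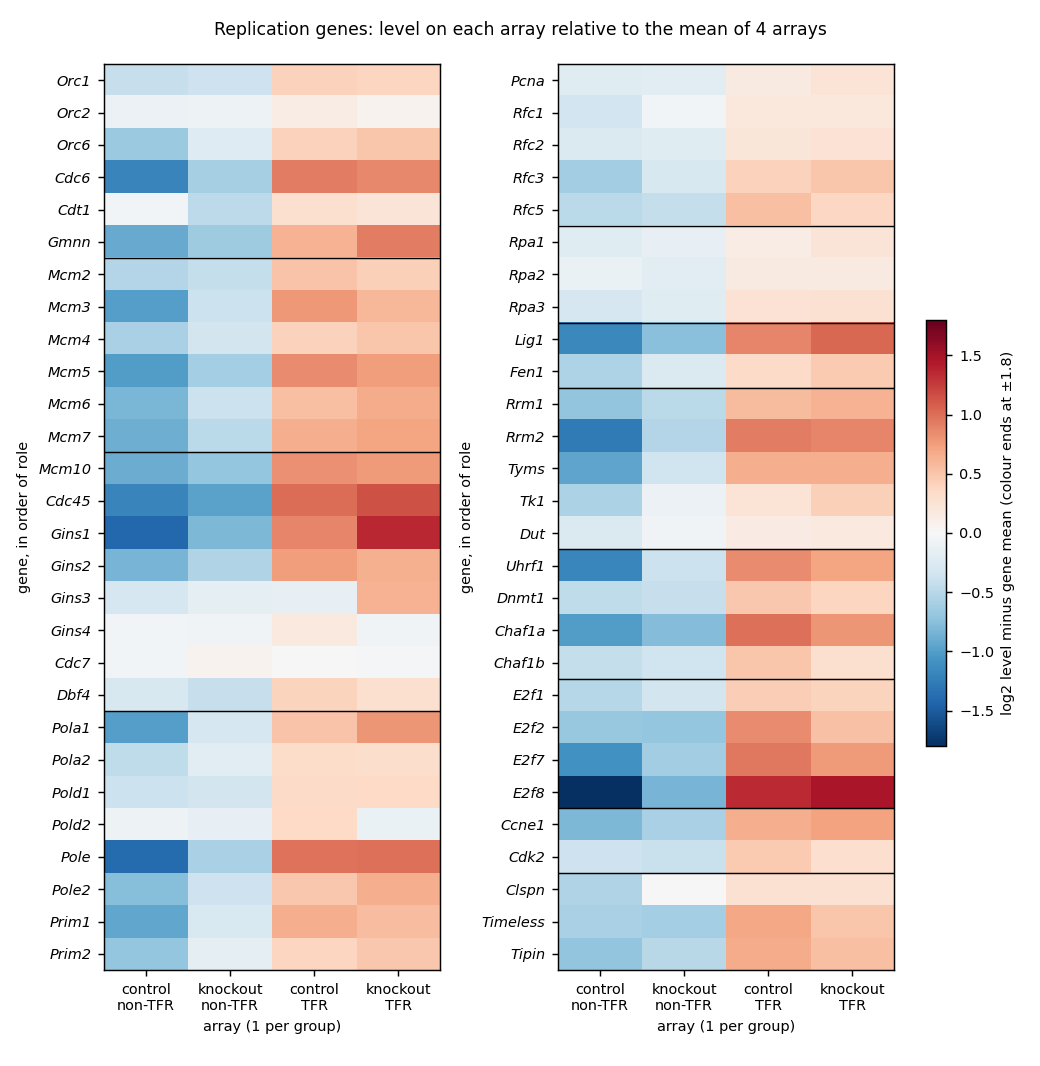
Colour gives the log2 level of each of the 56 measured genes on each array minus that gene's mean over the 4 arrays, with genes as rows in order of role (black lines divide roles) and the arrays, 1 per group, as columns. The non-TFR columns are blue and the TFR columns red for most rows, the control non-TFR column is the deepest blue, and Cdc7, Gins4 and Orc2 are nearly white throughout.

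Origin licensing genes differed by 0.24 to 2.11 between the populations of control mice. Cdc6, the ATPase that helps load the helicase, had levels of 8.65 and 8.60 in control and knockout TFR cells and of 6.53 and 7.13 in the non-TFR cells. It was thus 4.32-fold higher in TFR cells of control mice and 2.76-fold higher in those of the knockout. Geminin (Gmnn), the inhibitor that binds Cdt1 and prevents relicensing, stood at 9.76 and 10.07 in control and knockout TFR cells and at 8.24 and 8.50 in the non-TFR cells. Its difference was nearly alike in the genotypes, at 1.53 and 1.57. Cdt1, the loading factor itself, showed less separation, with 8.90, 8.85, 8.56 and 8.14 in control TFR, knockout TFR, control non-TFR and knockout non-TFR cells. Among subunits of the origin recognition complex, Orc6 was 1.08 higher in control and 0.72 higher in knockout TFR cells, and Orc1 0.83 and 0.75 higher. Orc2 differed least of this group, at 9.17 and 9.11 in TFR and 8.93 and 8.95 in non-TFR cells.

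All 6 subunits of the MCM helicase were higher in TFR cells, by 1.00 to 1.86 in control and by 0.84 to 1.35 in knockout mice. Mcm5 had the largest difference of the ring, with 11.04 and 10.93 in control and knockout TFR cells against 9.18 and 9.57 in the non-TFR cells. In control mice Mcm3 came next, with 10.42 and 10.24 against 8.65 and 9.26. The fold for Mcm3 was 3.42 in control and 1.97 in knockout mice, where Mcm7 (2.29-fold) and Mcm6 (2.08-fold) exceeded it. Mcm7 had levels of 9.20 and 9.26 in the TFR arrays and 7.67 and 8.06 in the non-TFR arrays. For Mcm6 the TFR levels were 10.96 and 11.09 and the non-TFR levels 9.60 and 10.03, control before knockout. Mcm2 (10.12, 10.04, 9.08 and 9.18 in control TFR, knockout TFR, control non-TFR and knockout non-TFR cells) was 2.05-fold higher in control TFR cells, and Mcm4 (10.40, 10.49, 9.40 and 9.65) fell just short of 2-fold at 1.9994. Every subunit had its lowest value in control non-TFR cells, and the TFR arrays lay close together.

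Factors that activate the loaded helicase split into genes with large and genes with small differences. Gins1 was at 7.46 and 7.94 in control and knockout TFR cells, against 5.17 and 5.77 in the non-TFR cells. Both non-TFR values lay below the expression limit, so the differences of 2.29 and 2.17 may be compressed and no fold is given. Cdc45, which travels with the helicase, had levels of 8.39, 8.53, 6.19 and 6.42 in control TFR, knockout TFR, control non-TFR and knockout non-TFR cells, 4.59-fold and 4.30-fold higher in TFR cells. Mcm10 was 1.71 and 1.46 higher, and Gins2 1.59 and 1.18. The remaining GINS subunits did not share this separation. Gins3 stood at 6.79 and 7.55 in control and knockout TFR cells and at 6.63 and 6.75 in the non-TFR cells, so that only the knockout TFR array was set apart. Gins4 had 9.68, 9.43, 9.46 and 9.43 in control TFR, knockout TFR, control non-TFR and knockout non-TFR cells. The kinase gene Cdc7 was flat, with 6.92, 6.91, 6.88 and 6.99, and its activating subunit Dbf4 was 0.69 higher in control and 0.71 higher in knockout TFR cells. The signs of the small population differences of Cdc7 in either genotype and of Gins4 and Pold2 in the knockout turned with the normalization.

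Among the polymerase genes the brightest probe of Pole, the catalytic subunit of the leading-strand polymerase, had the largest difference. Its levels were 9.10 and 9.13 in control and knockout TFR cells and 6.75 and 7.55 in the non-TFR cells, 5.12-fold higher in TFR cells of control mice and 2.99-fold higher in those of the knockout. This size rests on that probe: averaged with a second, dimmer one, whose mean level of 4.59 is below the expression limit, the differences were 1.02 and 0.93. The primase subunits Prim1 and Prim2 were 1.59 and 1.08 higher in control TFR cells and 0.82 and 0.65 higher in knockout TFR cells. Pola1, the catalytic subunit of the polymerase that starts each strand, was 1.51 and 1.10 higher, whereas its partner Pola2 was 0.80 and 0.50 higher. Polymerase delta showed smaller values: its catalytic subunit Pold1 was 0.73 and 0.68 higher. Pold2, its accessory subunit, had 10.28, 9.80, 9.82 and 9.77 in control TFR, knockout TFR, control non-TFR and knockout non-TFR cells, so that control TFR alone stood apart.

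The sliding clamp and the single-strand binding protein had among the smallest differences. Pcna, the clamp that holds polymerases on DNA, was at 12.39 and 12.46 in control and knockout TFR cells and at 11.99 and 12.03 in non-TFR cells, 1.31-fold and 1.35-fold apart. With centring on the 75th percentile its knockout difference was 0.24 in place of 0.43. Of the clamp loader, Rfc3 (8.27, 8.36, 7.22 and 7.57 in control TFR, knockout TFR, control non-TFR and knockout non-TFR cells) and Rfc5 were 2.07-fold and 2.05-fold higher in control TFR cells, and Rfc1 and Rfc2 were 0.54 and 0.47 higher. The 3 subunits of replication protein A, which coats unwound DNA, differed by 0.28 to 0.56 in control and by 0.36 to 0.49 in knockout mice. Rpa2 had the smallest of these, with 9.04 on both TFR arrays and 8.75 and 8.68 on the non-TFR arrays. Rpa3, the smallest subunit, had 11.10 and 11.11 in TFR and 10.54 and 10.63 in non-TFR cells.

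Okazaki fragment and nucleotide supply genes ranged widely. The ligase Lig1, which seals the fragments, had levels of 10.52 and 10.68 in control and knockout TFR cells and of 8.49 and 8.89 in the non-TFR cells, a 4.09-fold and a 3.45-fold difference. The flap nuclease Fen1, which trims them, stood at 7.65 and 7.78 against 6.74 and 7.04. Rrm2, the regulatory subunit of ribonucleotide reductase and the part that limits its activity in S phase, had 8.49 and 8.44 in TFR cells and 6.30 and 7.03 in non-TFR cells. Its partner Rrm1 was 1.28 higher in control and 1.12 higher in knockout TFR cells. Thymidylate synthase (Tyms) was at 9.52 on both TFR arrays, and at 7.92 and 8.50 in control and knockout non-TFR cells. Thymidine kinase (Tk1), of the salvage route, had 7.71, 7.89, 6.89 and 7.36 in control TFR, knockout TFR, control non-TFR and knockout non-TFR cells. The dUTPase gene Dut differed least, with 8.80 and 8.82 in TFR and 8.38 and 8.58 in non-TFR cells, and its sign turned when a dimmer probe was averaged in.

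Chromatin maintenance genes were higher in TFR cells as well. Uhrf1, which reads hemimethylated DNA and brings the maintenance methyltransferase to the fork, had 9.66 and 9.53 in control and knockout TFR cells and 7.64 and 8.43 in the non-TFR cells. That made 4.06-fold in control and 2.15-fold in knockout mice. Dnmt1, the methyltransferase, had 10.42 and 10.32 against 9.47 and 9.51 and differed by 1.93-fold and 1.75-fold. The histone chaperone subunit Chaf1b had levels of 9.25 and 9.03 in TFR and 8.32 and 8.38 in non-TFR cells, and Chaf1a was 2.00 and 1.59 higher in TFR cells.

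Regulators of S phase entry included the largest difference of the list. E2f8, an atypical E2F that represses transcription late in S phase, was at 9.29 and 9.42 in control and knockout TFR cells and at 5.97 and 7.11 in the non-TFR cells, 9.97-fold higher in TFR cells of control mice and 4.95-fold in those of the knockout. The control non-TFR level of E2f8 lay just above the expression limit of 5.91. The 9.97-fold difference rests on that level, as does the genotype difference of E2f8 in non-TFR cells given below. E2f7, a relative of E2f8, had 7.83 and 7.66 against 5.80 and 6.26, with the control non-TFR value below the expression limit. The activator E2f2 stood at 8.25 and 7.92 in TFR cells and 6.72 and 6.71 in non-TFR cells. The activator E2f1 had the smallest difference of the 4, at 7.69, 7.65, 6.74 and 6.92 in control TFR, knockout TFR, control non-TFR and knockout non-TFR cells. Cyclin E1 (Ccne1) was at 7.99 and 8.06 in TFR and 6.52 and 6.75 in non-TFR cells, and its kinase Cdk2 at 8.86 and 8.69 in TFR and 8.01 and 7.99 in non-TFR cells. Of the fork protection genes, Tipin had 9.22 and 9.09 in TFR and 7.83 and 8.05 in non-TFR cells. Its partner Timeless was 1.28 and 1.10 higher in TFR cells. The checkpoint mediator Clspn stood at 6.61 on both TFR arrays and at 5.80 and 6.33 in control and knockout non-TFR cells.

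**Figure D2:**
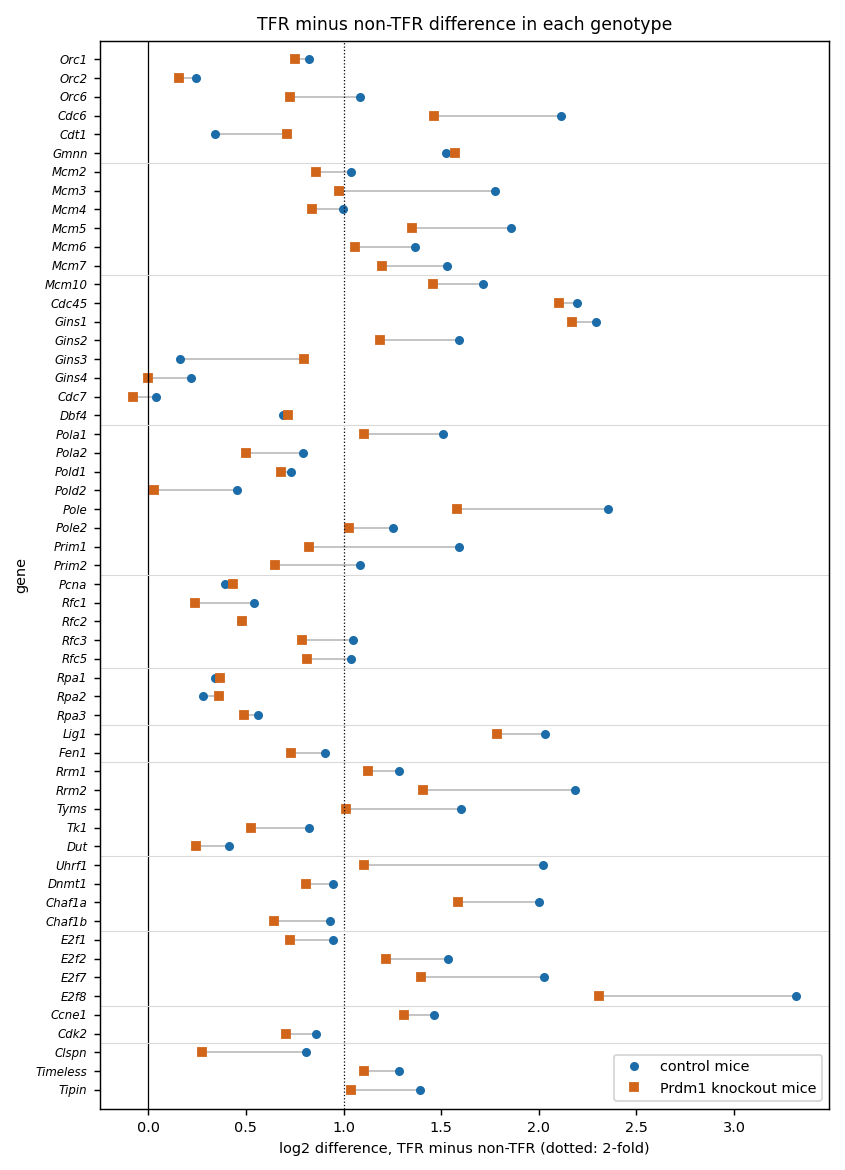
For each of the 56 genes, in order of role from top to bottom, the circle gives the log2 difference of the TFR and non-TFR arrays of control mice and the square that of knockout mice, with grey lines joining them and the dotted line at 2-fold. Squares lie left of circles for 48 genes, E2f8 lies farthest right in both genotypes, and Gins3 and Cdt1 are among the 8 genes with the square to the right.

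The order of genes by size of this difference was much alike in the genotypes. Across the 56 genes, which are not independent replicates, the control and knockout differences had a Spearman rho of 0.92 and a Pearson r of 0.91. These comparisons share no array but were read from the same probes. The 7 genes at least 2-fold higher in control and not in knockout mice were Orc6, Mcm2, Mcm3, Prim1, Prim2, Rfc3 and Rfc5, and no gene was 2-fold higher in the knockout only. In knockout mice these 7 were still 0.65 to 0.97 higher in TFR cells, so the split depends on the limit. The share of all genes with such a split was not counted.

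Within TFR cells the replication genes did not separate knockout from control. The median difference was -0.005 against 0.013 over all genes, 27 genes were higher and 29 lower in the knockout, and 52.4% of all genes were higher. None of the 56 was 2-fold apart, where 0.289% of all genes were 2-fold higher and 0.162% 2-fold lower, and 1 was at least 1.5-fold higher, where 1.81% of all genes were. For 50 genes the arrays lay within 0.25 of each other. Such small differences were common, as the middle 50% of all genes spanned -0.13 to 0.16. The widest differences were those of Gins3 (0.76 higher, 1.70-fold), Gins1 (0.48 higher) and Pold2 (-0.48, from 10.28 to 9.80). Among the 11090 genes above the expression limit the middle 95% spanned -0.50 to 0.56, which held all 56 except Gins3. Signs of differences under 0.1 turned with the processing for 7 genes.

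Within non-TFR cells most replication genes were higher in the knockout, by a smaller amount than between the populations. The median difference was 0.23 against 0.03 over all genes, and 48 of 56 genes were higher, where 56.1% of all genes were. At least 2-fold higher was 1 gene, E2f8 (2.20-fold), where 0.433% of all genes were, and none was 2-fold lower, where 0.0766% of all genes were. At a limit of 1.5-fold 9 genes were higher, where 2.44% of all genes were: E2f8, Pole (1.74-fold), Uhrf1 (1.72-fold), Rrm2 (1.67-fold), Pola1 (1.61-fold), Prim1 (1.59-fold), Mcm3 (1.53-fold) and Cdc6 (1.51-fold), with Gins1 below the expression limit on both arrays. Of these, 5 exceeded the 97.5th percentile of genes above the expression limit, 0.68. Pole and Rrm2 were among these 5 by their brightest probe alone, and with their probes averaged they were 1.33-fold and 1.43-fold higher, short of both limits. The nucleotide supply genes were all higher, by 0.20 to 0.74, as were the MCM subunits, by 0.10 to 0.61. The clamp genes and replication protein A stayed within 0.10 apart from Rfc1 (0.30) and Rfc3 (0.34). Of the 8 genes with a lower value in the knockout, Cdt1 had the largest difference at -0.42 and Dbf4 followed at -0.14, and the others lay within 0.10 of 0. The 4 follicular genes Cxcr5, Pdcd1, Bcl6 and Icos were also higher, with summed log2 levels of 32.2 in control and 35.4 in knockout non-TFR cells. Their sum was likewise higher in knockout than in control TFR cells, 41.3 against 38.2, where the replication median was -0.005. The 6 regulatory T cell genes summed to 69.4 and 70.4 in control and knockout non-TFR cells, and to 70.0 and 68.9 in TFR cells. The part of these marker genes in the result was not tested.

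**Figure D3:**
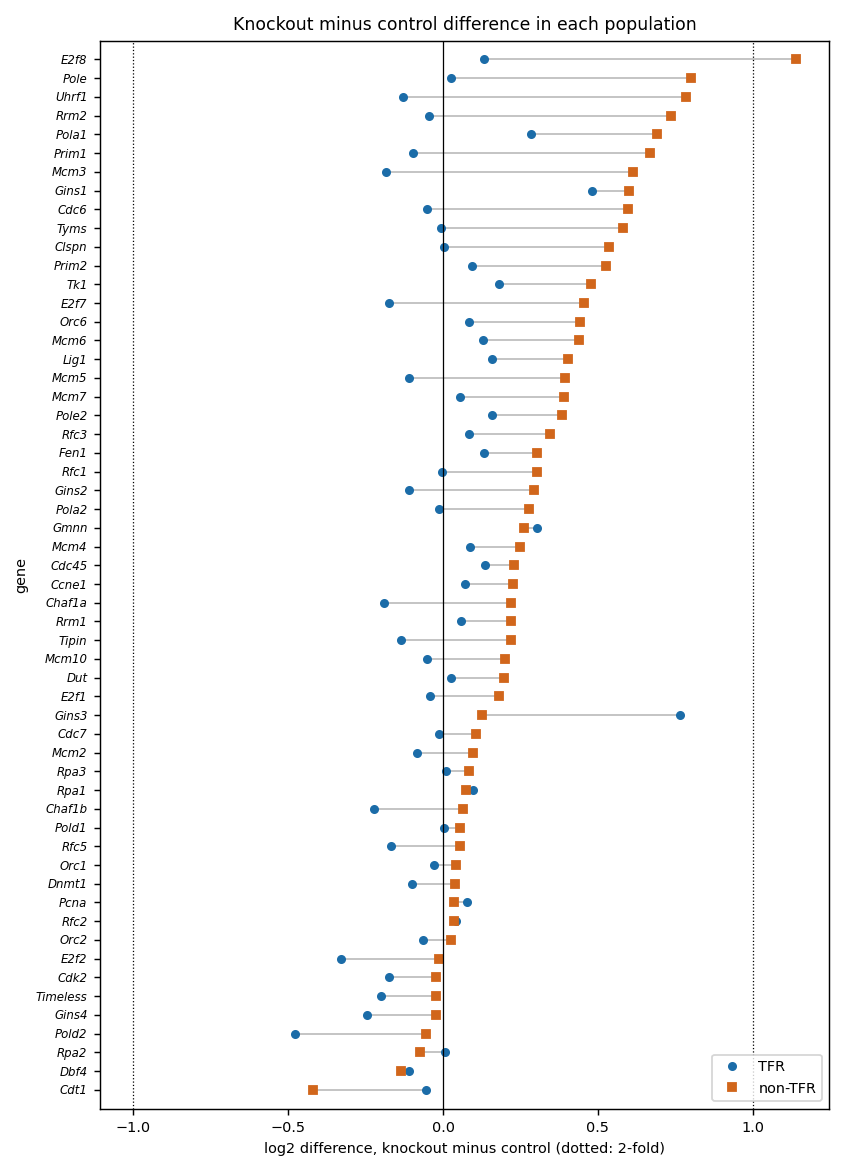
The circle gives each gene's log2 difference of knockout and control arrays in TFR cells and the square that in non-TFR cells, with genes sorted by the latter and dotted lines at 2-fold in either direction. Circles scatter around 0 with Gins3 as the farthest, while squares reach from -0.42 for Cdt1 to 1.14 for E2f8.

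The difference between TFR and non-TFR cells was smaller in the knockout for 48 of 56 genes, with a median change of -0.24 against -0.02 over all genes, of which 52.9% were below 0. This is the same quantity as the genotype difference in TFR cells minus that in non-TFR cells, so the comparisons are not separate evidence. The change was largest for E2f8 (-1.01), followed by Uhrf1 (-0.92), Mcm3 (-0.80), Rrm2 (-0.78) and Pole (-0.77). With probes averaged the change was -0.51 for Rrm2 and -0.09 for Pole. In the opposite direction stood Gins3 (0.64) and Cdt1 (0.36), with Rpa2 (0.08), Pcna and Gmnn (both 0.04) next. Control non-TFR below knockout non-TFR below both TFR arrays was the order for 47 of 56 genes, where 20.4% of all genes had it. This order combines arrangements already counted and is not separate evidence. Both TFR arrays above both non-TFR arrays alone held for 53 of 56 genes and 32% of all genes.

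Other genes of replication, not among the 58, were less separated. Both lists were chosen with earlier results of these data known, so this contrast describes the lists and was not tested. Of 50 such genes 46 were measured. In control mice 36 were higher in TFR cells, where 51.7% of all genes were, and 11 at least 2-fold higher, where 2.69% were. The median was 0.38. In the knockout 37 were higher, where 50% of all genes were, and 5 at least 2-fold higher, where 2.23% were. The median there was 0.41. The origin firing factor Ticrr had the largest difference at 3.11 in control and 1.95 in knockout mice, and the histone chaperone Asf1b (2.51 and 1.70) and the chromatin remodeller Hells (2.50 and 1.86) followed. Lowest were the p53-induced reductase subunit Rrm2b, at 6.70, 6.98, 7.58 and 7.58 in control TFR, knockout TFR, control non-TFR and knockout non-TFR cells, and the dNTP hydrolase Samhd1, at 11.55, 11.34, 12.32 and 12.17. These 2 genes thus lay lower in TFR cells, opposite to Rrm2. E2f5, a member of the repressor-type E2Fs, stood at 7.39 in control TFR cells against 7.95 in control non-TFR cells, and at 7.86 against 8.01 in the knockout.

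Set beside genes of mitosis, the replication genes had the smaller median difference between the populations. The 28 mitosis genes measured had median differences of 2.61 and 1.99 between the populations in control and knockout mice, against 1.07 and 0.82 for replication. Within non-TFR cells their knockout minus control median was 0.54 against 0.23, and within TFR cells 0.10 against -0.005. Nusap1, Cdk1 and Mki67 were 3.97, 3.61 and 3.42 higher in control TFR cells, above each replication gene in size of difference. The control non-TFR levels of Nusap1 (5.78) and Cdk1 (5.52) lay below the expression limit. Aurka at 0.47 was the lowest of the list. The 22 DNA repair genes measured had medians of 0.76 and 0.81 between the populations. With 1 array per group these list differences were not tested, and the lists share no gene with the replication list. These lists too were chosen with earlier results of these data known.

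**Figure D4:**
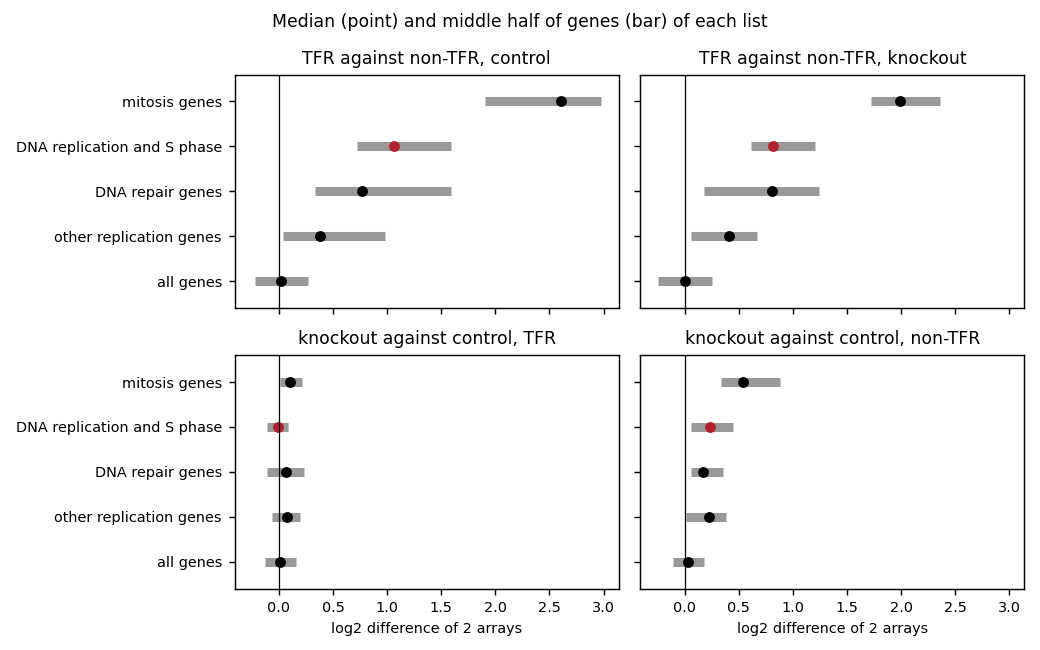
Each panel is a comparison of 2 arrays, the point is the median log2 difference of a list and the grey bar spans its middle 50% of genes, with the 56 replication genes in red. Medians of replication genes are 1.07 and 0.82 between the populations and near 0 and 0.23 between genotypes in TFR and non-TFR cells, and mitosis genes lie farther right in all panels.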

How the data were processed

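Arrays were assigned to groups by their titles. The deposited table gives 1 value per probe and array, made by the authors. Its values, from 2.23 to 13.8, fit a log2 scale, which no source states. The submitters' processing notes name MAS5 with no role, and how background and summarization were handled is not given in the sources used here. Deposited log2 medians lay between 5.58 and 5.69. All 41345 probes were quantile normalized with limma 3.58.1 in R 4.3.3, which also removes real differences common to most genes. Of the probes, 23521 carry 1 gene symbol in the platform annotation, 1814 carry several and 16010 are not named there. The brightest probe by the mean over 4 arrays stood for a gene. The members, roles and comparison lists were chosen with earlier results of these data known. Values on all arrays are given for 37 members by a fixed rule: extremes of each role group, key regulators, and members with the largest genotype differences; other members are named to account for them, Cdc45 with all its levels after they were seen. Counts of 2-fold genes cover all genes without a filter, and folds are given only where both levels exceeded 5.91. The difference steps were tested on simulated data. Promoter windows were RefSeq's, and overlapping windows of opposite strands (1668 pairs) were checked to read on the gene's strand. Alternatives were other normalizations, probe means, filters on dim genes, a floor, another fold limit and list means.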

Additional observations from a re-analysis of the deposited data

Results flagged for a closer look

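The knockout minus control difference had opposite signs in TFR and non-TFR cells for 7 genes with at least 0.1 in size on both sides. The share of all genes meeting this rule was not counted, so whether 7 is more than usual is unknown. Differences of 0.1 were common, as the quartiles of all genes were -0.13 and 0.16 in TFR cells. In non-TFR cells the quartiles were -0.11 and 0.18. For the list the medians were -0.005 in TFR and 0.23 in non-TFR cells, but the first cannot be told from 0 (the mean there was 0.000899), and the median over genes of the TFR minus the non-TFR difference was -0.24. Uhrf1 had the widest gap, at -0.92 (-0.13 and 0.79, TFR before non-TFR). It was -0.80 for Mcm3 (-0.18 and 0.61), -0.63 for E2f7 (-0.17 and 0.46) and -0.50 for Mcm5 (-0.11 and 0.39). Smaller gaps were those of Chaf1a at -0.41 (-0.19 and 0.22), Gins2 at -0.41 (-0.11 and 0.29) and Tipin at -0.35 (-0.13 and 0.22). These differences between the populations were not tested, since each group has 1 array, and the TFR values are small.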

How the results depend on the processing

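With 1 array per group no alternative has a test, and a value counted as shifted when it moved by more than 0.1. As deposited, the TFR minus non-TFR medians were 1.18 in control and 0.95 in knockout mice, where all genes had medians of 0.11 and 0.12. Relative to all genes they were 1.07 and 0.83, against 1.05 and 0.82 after quantile normalization. The mean in place of the median was 1.19 in control mice. Keeping only the 33 members whose mean exceeded the 75th percentile, the medians were 0.95 and 0.71, and 15 and 10 members were at least 2-fold apart in control and knockout mice, where 3.88% and 2.83% of all genes so filtered were. No such member was 2-fold apart between genotypes in non-TFR cells, where the count fell to 0 because E2f8 was filtered out. At a limit of 1.5-fold the counts were 43 in control and 42 in knockout mice between the populations, where 14.7% of all genes were apart in each, 1 between genotypes in TFR and 9 in non-TFR cells. Cyclic loess, centring on the 75th percentile, named probes only and averaged probes shifted no list median by more than 0.1 and no count by more than 1.5 times. The median filter and the floor could change nothing. No member had a mean below the median, and no member level lay below the floor of 4.70. Of 1110 values of the 37 members under alternatives 89 moved by more than 0.1, and none that was 2-fold apart changed sign. The 1110 include 185 values with the floor, which could not move, and averaging could move only members with more than 1 probe. Of the moved values 67 were as deposited, where 118 stayed within 0.1. Another 20 were with averaged probes and 2 with centring on the 75th percentile. No paired analysis was possible because each group had 1 array. The lack of replicates and of detection calls limits every value.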

Other observations

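Of the 6 replication genes with a further probe, Rrm2, Fen1 and Rpa3 had higher values in TFR cells on it in both genotypes. The dimmer Rrm2 probe was 2.49 higher in control and 2.26 higher in knockout TFR cells, with non-TFR levels of 3.50 and 3.79 that may lie at background. The further Fen1 probe gave 0.67 and 0.96, with non-TFR levels of 5.58 and 5.49 that lie below the expression limit. That of Rpa3, with a mean level of 9.07, gave 0.39 and 0.77. The further probes of Pole, Dut and Rpa1 had mean levels of 4.59, 4.61 and 5.80, below the expression limit, and their control differences were -0.32, -0.51 and -0.09. For Rpa3 and Fen1 the further probe gave knockout minus control differences of -0.15 and -0.09 in non-TFR cells, where the brightest probe gave 0.08 and 0.30.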
